A study of Mus musculus with 10 samples.

Results

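The genes described here act in the G2 phase and in mitosis, and 48 of them were chosen by name. Of these, 47 had an array probe set listed to 1 gene symbol, out of 18193 genes on the array. Each was read from the probe set with the highest mean log2 signal over the 10 arrays. All 47 were bright enough to be tested, as were 11397 genes in all, and none was near background on any array. The RNA of Ccnb1 was not analysed here.

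A cell that has copied its DNA enters mitosis when the kinase Cdk1, bound to A- and B-type cyclins, becomes active. Polo-like and Aurora kinases, kinesin motors and the kinetochore then build the spindle, a checkpoint holds anaphase until all chromosomes are attached, and the anaphase-promoting complex with Cdc20 ends the phase by marking cyclins and securin for destruction. Most of the genes are transcribed only late in the cell cycle, under the MuvB complex with Mybl2 and under Foxm1, so their RNA is widely used as a gauge of dividing cells. In the early postnatal cerebellum the dividing cells are mainly granule cell precursors, for which sonic hedgehog (Shh) is the main mitogen.

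The arrays came from 4 groups of primary cerebellar granule cell precursor cultures of mice labelled as postnatal days 5 to 7 (day 7 in the growth notes of all but 1 culture): Bmi1 knockout with Shh (replicates 8 and 10), wild type with Shh (7 and 9), Bmi1 knockout untreated (2, 4 and 6) and wild type untreated (1, 3 and 5). Knockout mice are labelled Bmi-1-/- and lack a Polycomb group protein, and the deleted part of the gene, the strain and the number of animals per culture are not given in the sources used here. Every culture was made from cerebella stripped of meninges, without cell sorting, and was kept for 24 hours in a medium of 10% fetal calf serum to which KCl (20 mM) had been added. Shh was given for 24 hours at a concentration labelled as 3 mg/ml. Whether those hours came on top of the 24 hours of culture is not stated, so Shh and time in culture cannot be told apart. Wild type replicate 3 has a protocol entry that speaks of Shh "if applicable", but its title is that of untreated cells and it was grouped so. The submitters call the cultures biological replicates, and all p-values rest on how far these cultures differ from each other, which may be technical. The number of arrays, 2 or 3 in a group, limits the precision of every value.

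Signals are linear intensities scaled by the submitters to a trimmed mean of 500 on every array, and replicates of a group correlated at 0.980 to 0.984 over log2 values. The 2 Bmi1 probe sets gave 3424 ± 11.8 and 2146 ± 103 in knockout cultures with Shh, against 4340 ± 248 and 2299 ± 363 in wild type cultures with Shh (SD, n = 2 each). These probe sets cannot check the genotype, since the deleted part is not known. Cdkn2a, a locus known to be repressed by Bmi1, had a signal of 329 and 451 in knockout with Shh, 31.1 and 24.0 in wild type with Shh, 273, 271 and 301 in untreated knockout and 35.7, 30.2 and 41.6 in untreated wild type cultures. Summed signals of 9 markers of the granule cell lineage, among them Atoh1, Barhl1, Zic1 and Neurod1, ranged over 47160 to 47710, 48230 to 49500, 44280 to 47420 and 43410 to 53500 in the same order of groups, and none was at the floor. Zic1 and Neurod1 were the brightest of the 9 on every array, so the sums largely follow them and do not measure the share of precursors. Atoh1 alone read 2043 and 1848, 2036 and 2256, 1431, 1935 and 1540, and 1462, 1730 and 1643 in that order.

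With Shh, most of the G2/M and mitosis genes had more RNA in both genotypes. In knockout cultures 29 of the 47 genes rose and 0 fell (limma, adjusted p under 0.05), whereas 28.1% of all genes tested changed, 11.1% higher and 17% lower. In wild type cultures 39 rose and 0 fell, whereas 33.8% of all genes tested changed, 14% higher and 19.8% lower. The median difference was 0.45 on the log2 scale in knockout and 0.67 in wild type cultures, against -0.01 over all genes tested in each. Arrays with Shh lay wholly above untreated arrays for 36 genes in knockout and 45 genes in wild type cultures, an order found for 26.1% and 27.3% of all genes. All 29 genes that rose in knockout also rose in wild type cultures, 10 passed in wild type and not in knockout cultures, without a passing interaction for any, and 8 passed in neither. In these bulk samples, fewer cells of a type and less RNA per cell cannot be told apart.

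**Figure D1:**
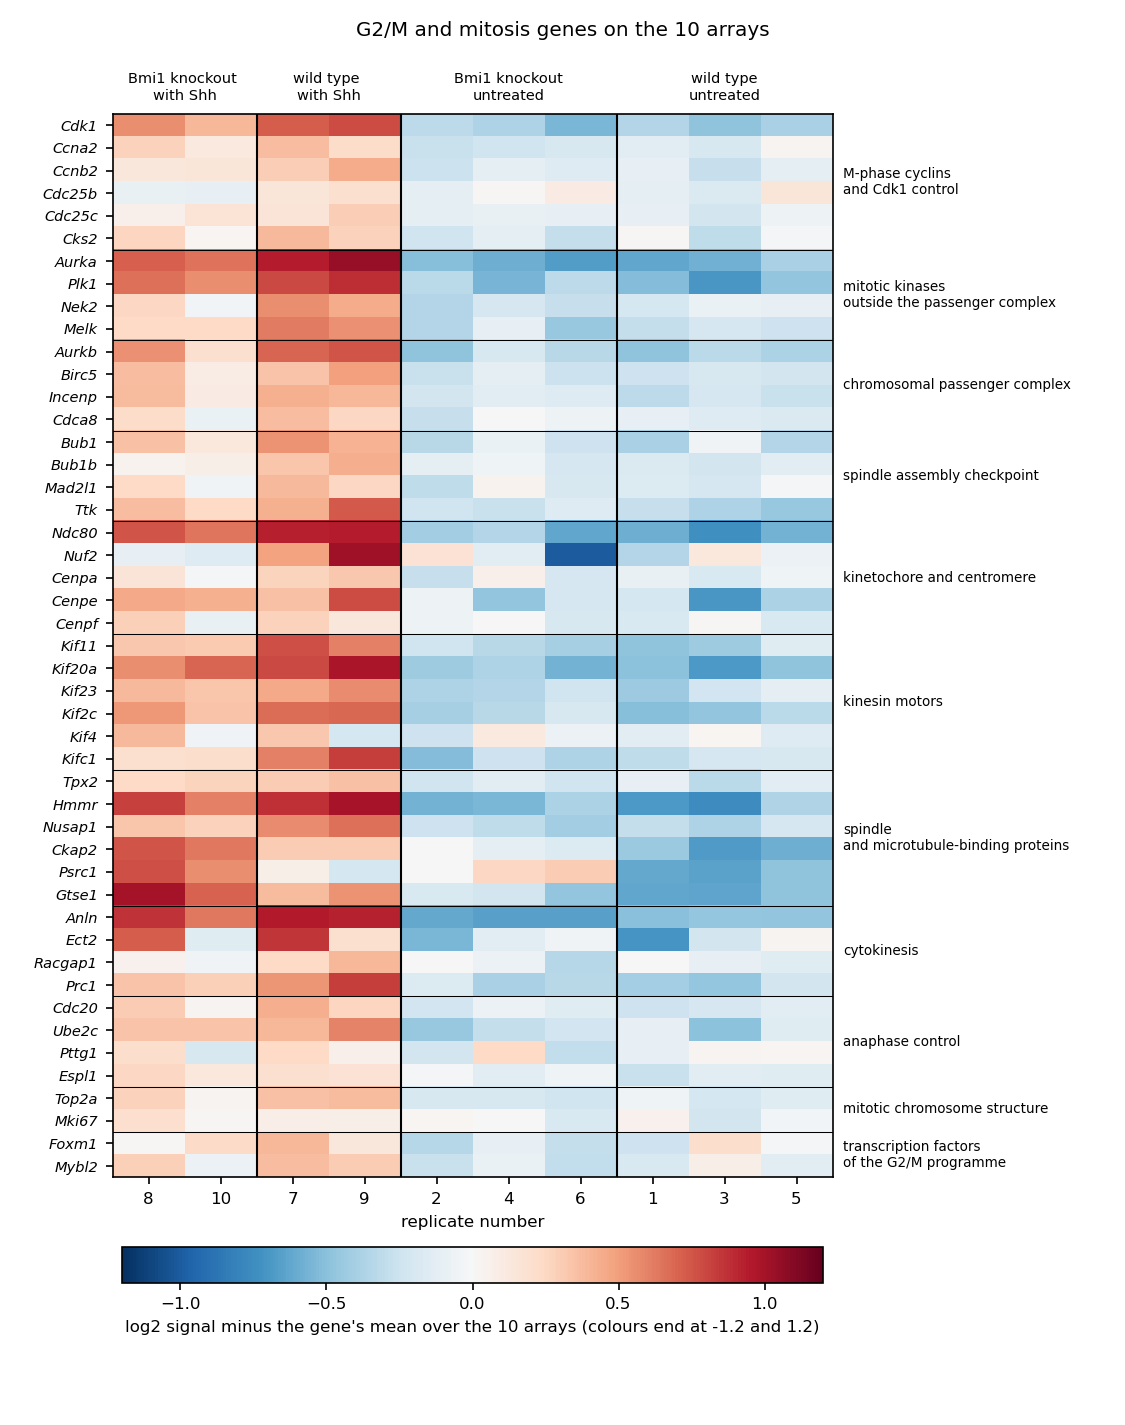
Each row is a gene, grouped by role, and each column an array, with the replicate number below. Colour is the log2 signal minus the gene's mean over the 10 arrays. The 4 columns with Shh are mostly red and the 6 untreated columns mostly blue, with Psrc1, Ckap2 and Gtse1 redder in knockout than in wild type columns.

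Array by array, the median over the 47 genes of the log2 signal minus the gene's own mean was 0.32 and 0.16 in knockout with Shh (replicates 8 and 10), 0.40 and 0.44 in wild type with Shh, -0.26, -0.13 and -0.24 in untreated knockout and -0.26, -0.22 and -0.15 in untreated wild type cultures. The 4 arrays with Shh thus lay above all 6 untreated ones. Within knockout cultures the 2 arrays with Shh differed from each other more than those of wild type did. Without replicate 8, 18 genes rose with Shh in knockout cultures and the median was 0.35. Of all genes tested, 634 then rose, against 1260 with every array. Without replicate 10 the median was 0.55.

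Markers of other cell types moved with Shh as well. Summed signals of 6 endothelial markers were 175.6 to 188.3 with Shh against 3616 to 3784 untreated in knockout cultures, and 212.7 to 266.7 with Shh against 2973 to 4130 untreated in wild type cultures. All 4 endothelial genes tested fell in both genotypes, and at the floor on every Shh array lay 2 of the 6 in knockout and 1 in wild type. The 4 Purkinje cell markers summed to 3747 to 5201 with Shh against 16820 to 30970 untreated in knockout cultures, and 3521 to 3922 with Shh against 12900 to 25040 untreated in wild type cultures, and all 4 fell in both genotypes. For 9 markers of astrocytes and Bergmann glia the sums were 16000 to 17190 with Shh against 34790 to 36770 untreated in knockout cultures, and 12580 to 13150 with Shh against 31270 to 44430 untreated in wild type cultures. In each genotype 7 of these 9 fell, and in knockout 1 (Gfap) rose. Fibroblast markers fell in 5 of 6 genes tested and microglial markers in 5 of 8, in both genotypes, with 1 microglial marker (Cd68) higher in knockout. Oligodendrocyte lineage markers fell in 3 of 6 in knockout and 4 of 6 in wild type, with 1 (Pdgfra) higher in each, and markers of GABAergic interneurons in 3 of 4 in knockout and 4 of 4 in wild type. Of the 9 granule cell lineage markers, 2 rose in each genotype, among them Gli1, which hedgehog signalling induces, and 0 fell. A negative sign was found for 5 of the 9 in each genotype, with medians of -0.09 in knockout and -0.17 in wild type cultures. Of 7 markers of maturing granule neurons and synapses tested, 1 fell in knockout and 2 in wild type cultures, and 0 rose. The part of these cell types in the Shh differences of the mitotic genes was not tested.

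The median signal of all probe sets was 66.8 to 72.3 on arrays with Shh and 84.8 to 91.2 on untreated arrays, although the trimmed means were equal. Centring each array on its median moved the median of all genes by 0.29 in knockout and 0.35 in wild type cultures. The median of the mitotic genes then became 0.74 and 1.02, which is 0.45 and 0.69 above that of all genes, as before. Under that scaling 79.3% of all calls in knockout and 80.6% in wild type cultures were higher with Shh, against 39.4% and 41.3% with the deposited scaling.

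**Figure D2:**
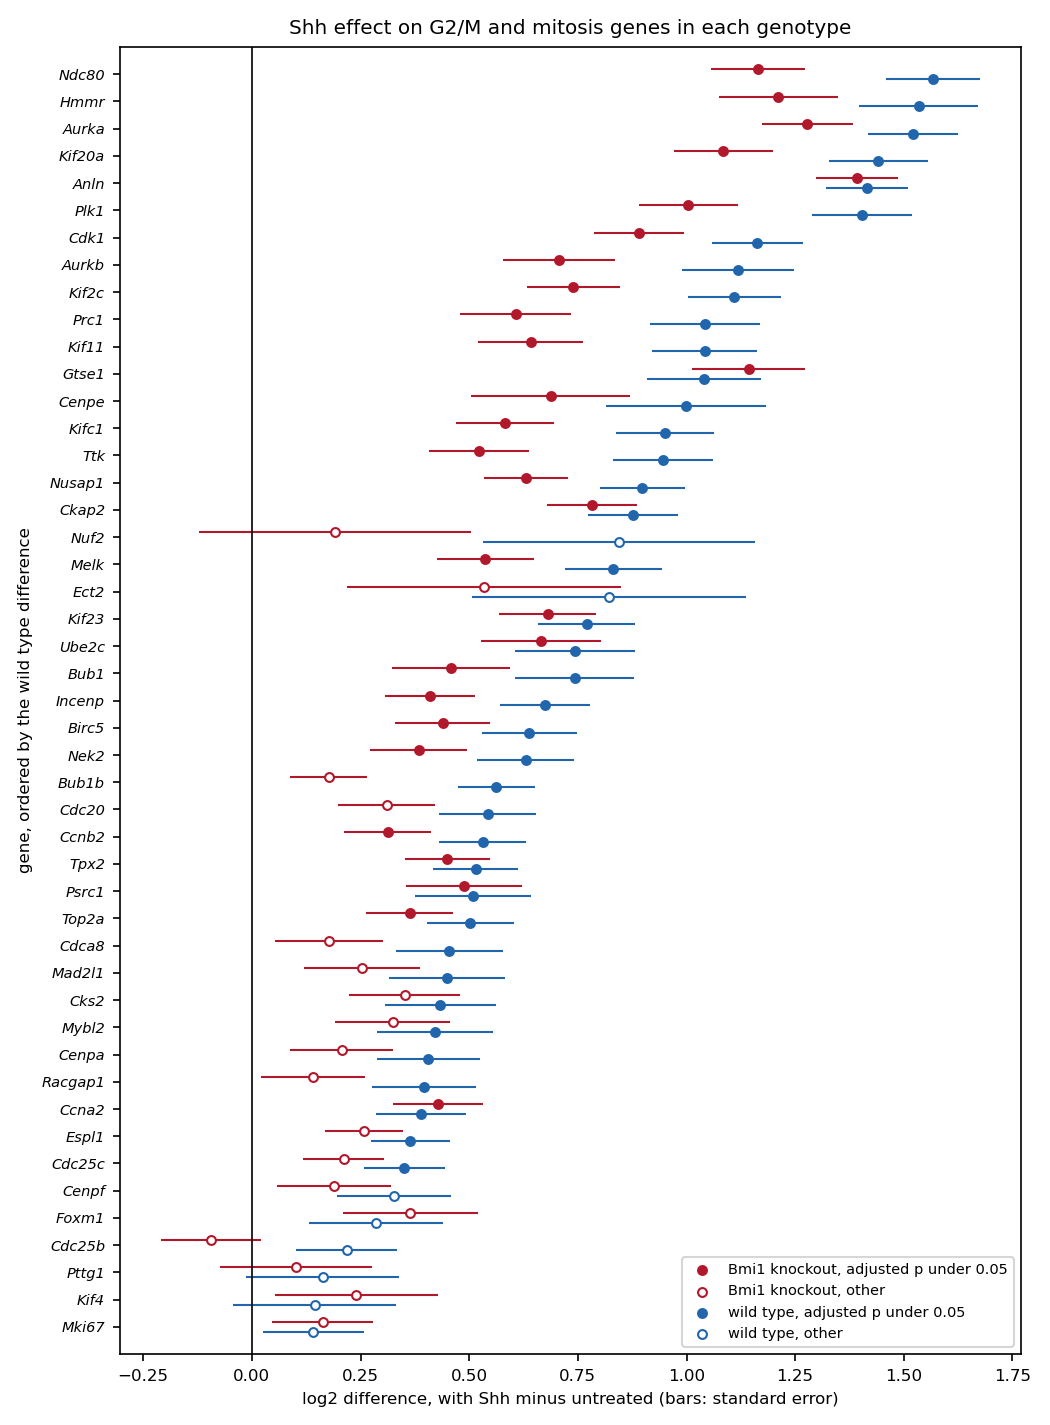
The log2 difference with Shh minus untreated (horizontal axis) is shown for each gene in knockout (red) and wild type (blue) cultures, with the standard error as a bar and a filled point where the limma adjusted p was under 0.05. The largest differences are those of Ndc80, Hmmr, Aurka, Kif20a and Anln, and most red points lie left of the blue ones.

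Promoters are shown because the genes moved together. Late cell cycle promoters are known for a cell cycle homology region (CHR), TTTGAA or, less often, TTTAAA, which the MuvB complex binds, and for CCAAT boxes, which the factor NF-Y binds. RefSeq (GRCm38.p6) promoters from 250 bases before to 50 after the start were at hand for 41 of the 48 genes, Ccnb1 among them, and were missing for Aurkb, Ccna2, Cdc25c, Foxm1, Incenp, Kif20a and Tpx2. On either strand, TTTGAA was found in 26 of the 41 (63.4%) and in 20.2% of the 27025 genes with a promoter, and TTTAAA in 10 (24.4%) and in 14.9% of all. CCAAT was found in 31 (75.6%) and in 41.1% of all. CCAAT together with either CHR form was found in 26 (63.4%) and in 13.4% of all, and 6 of the genes (14.6%) held none of the 3, against 41.8% of all. A match is a description of letters and does not show that a factor binds there.

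The stretches below run from 150 bases before to 30 bases after the start, 5′ to 3′ along the gene. Capitals mark the 3 motifs, read on either strand, so that a box on the other strand shows as its reverse complement. Cdk1, Ccnb2, Aurka, Plk1, Kif11, Prc1 and Cdc20 stand for genes that rose with Shh in wild type cultures and hold a CHR form. Psrc1 stands for the gene called between genotypes in untreated cultures, a call lost in 13 of 20 other fits. The stretches lie as follows: Cdk1 at chr10:69352883-69353062 on the minus strand, Ccnb2 at chr9:70421525-70421704 on the minus strand, Aurka at chr2:172370541-172370720 on the minus strand, Plk1 at chr7:122159285-122159464 on the plus strand, Kif11 at chr19:37376232-37376411 on the plus strand, Prc1 at chr7:80294301-80294480 on the plus strand, Cdc20 at chr4:118437314-118437493 on the minus strand, and Psrc1 at chr3:108383654-108383833 on the plus strand. Prc1 and Psrc1 have 2 starts each, of which the first listed is shown.
Cdk1: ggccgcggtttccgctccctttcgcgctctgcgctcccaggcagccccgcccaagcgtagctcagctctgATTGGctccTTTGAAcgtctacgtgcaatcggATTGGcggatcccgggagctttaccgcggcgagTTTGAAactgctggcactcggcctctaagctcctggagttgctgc
Ccnb2: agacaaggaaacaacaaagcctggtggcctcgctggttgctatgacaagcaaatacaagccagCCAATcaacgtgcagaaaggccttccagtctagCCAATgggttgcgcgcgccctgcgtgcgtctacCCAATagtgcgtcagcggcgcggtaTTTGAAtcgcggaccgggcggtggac
Aurka: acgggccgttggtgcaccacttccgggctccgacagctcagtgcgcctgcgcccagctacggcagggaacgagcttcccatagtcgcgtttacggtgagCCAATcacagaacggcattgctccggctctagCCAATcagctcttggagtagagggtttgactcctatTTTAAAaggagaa
Plk1: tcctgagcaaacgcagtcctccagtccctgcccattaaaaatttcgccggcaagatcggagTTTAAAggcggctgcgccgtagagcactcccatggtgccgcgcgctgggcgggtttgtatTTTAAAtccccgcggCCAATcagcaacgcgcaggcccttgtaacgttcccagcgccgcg
Kif11: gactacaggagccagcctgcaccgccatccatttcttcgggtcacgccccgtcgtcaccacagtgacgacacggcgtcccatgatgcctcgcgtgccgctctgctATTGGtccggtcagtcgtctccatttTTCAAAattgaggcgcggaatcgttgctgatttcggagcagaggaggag
Prc1: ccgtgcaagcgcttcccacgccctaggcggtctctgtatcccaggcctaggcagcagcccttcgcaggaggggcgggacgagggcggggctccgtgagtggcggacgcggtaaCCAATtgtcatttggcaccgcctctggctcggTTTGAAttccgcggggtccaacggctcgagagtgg
Cdc20: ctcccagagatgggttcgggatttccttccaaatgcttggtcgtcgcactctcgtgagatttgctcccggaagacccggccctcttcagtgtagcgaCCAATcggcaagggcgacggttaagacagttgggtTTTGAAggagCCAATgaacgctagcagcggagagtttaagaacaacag
Psrc1: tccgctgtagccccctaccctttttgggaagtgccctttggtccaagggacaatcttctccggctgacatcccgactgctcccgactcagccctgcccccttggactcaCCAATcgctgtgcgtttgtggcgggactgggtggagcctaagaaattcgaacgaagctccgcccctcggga

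In these windows Ccnb2 and Cdk1 carry CCAAT boxes upstream of a TTTGAA close to the start, whereas Plk1 and Aurka carry TTTAAA in the printed stretch and a TTTGAA just past its end, 31 and 33 bases after the start. Psrc1 holds a CCAAT box and neither CHR form. Among the 40 genes with both a promoter and a probe set, the median Shh difference in knockout cultures was 0.56 for the 26 genes with TTTGAA and 0.41 for the 14 without it, and in wild type cultures 0.80 and 0.63. For CCAAT the order was the other way, with 0.47 for the 30 genes with it and 0.49 for the 10 without it in knockout, and 0.69 and 0.84 in wild type cultures. These medians are descriptions and were not tested.

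**Figure D3:**
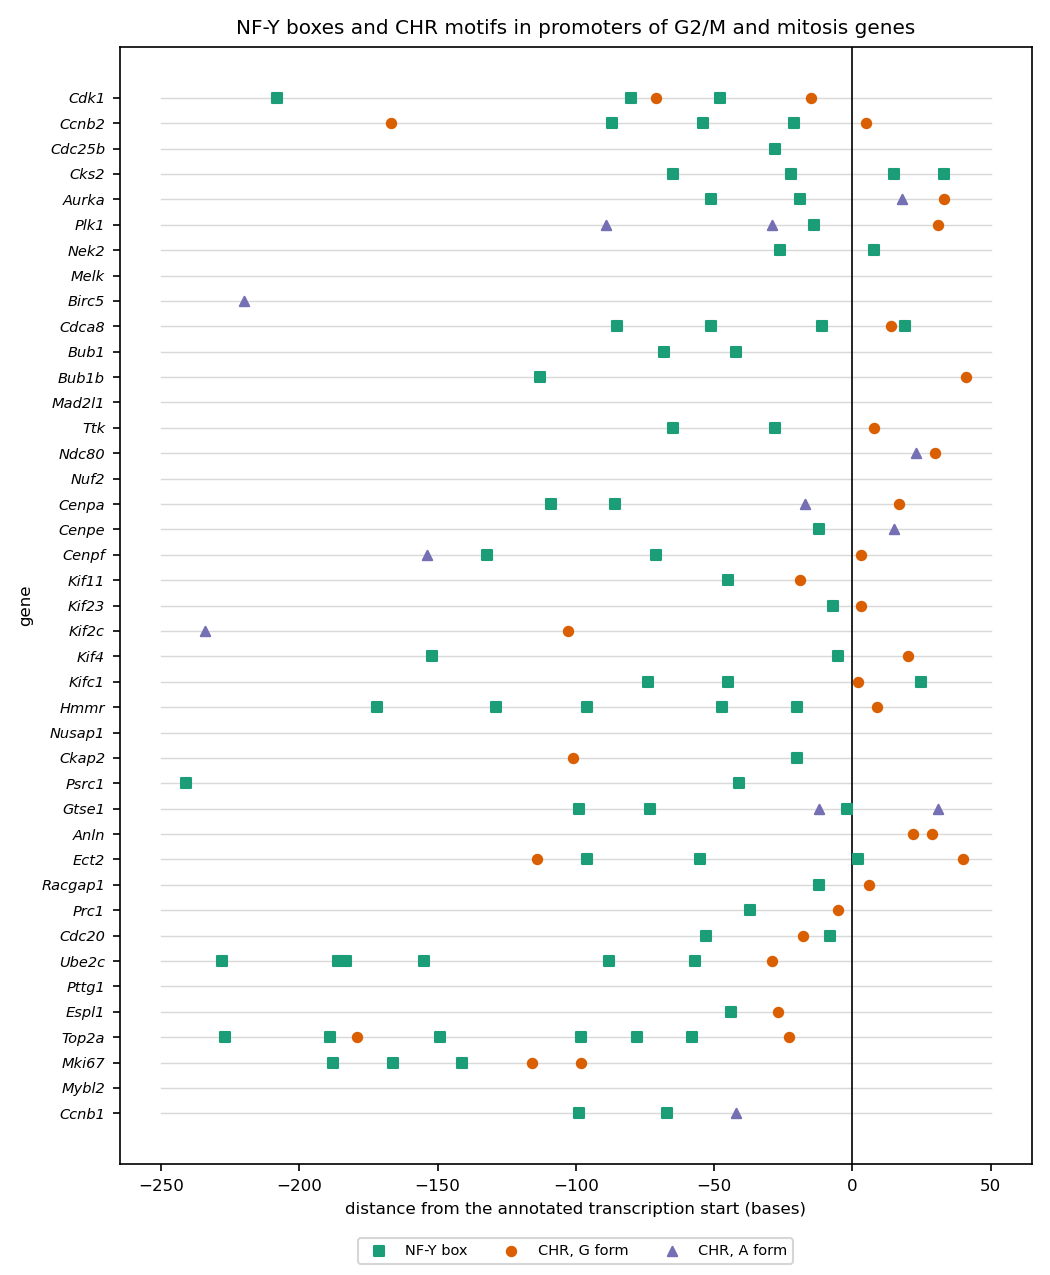
Positions of NF-Y boxes (CCAAT, squares), CHR G form (TTTGAA, circles) and CHR A form (TTTAAA, triangles) are shown by distance from the annotated transcription start for the 41 genes with a promoter in the table. Circles lie mostly within 50 bases of the start, and squares mostly upstream of it.

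Among the M-phase cyclins and the genes that control Cdk1, 3 of 6 rose in knockout and 5 of 6 in wild type cultures. Cdk1, the kinase that drives entry into mitosis, read 5965 and 5359 with Shh against 3259, 3137 and 2772 untreated in knockout cultures, and 6703 and 6980.1 with Shh against 3174, 2903 and 3091 untreated in wild type cultures. The groups did not overlap in either genotype, and the rise was 1.85-fold in knockout (log2 0.89, SE 0.10, adjusted p 0.000409) and 2.24-fold in wild type (log2 1.16, SE 0.10, adjusted p 6.68e-05). Cyclin A2 (Ccna2) rose 1.35-fold in knockout and 1.31-fold in wild type cultures, and cyclin B2 (Ccnb2) 1.24-fold in knockout and 1.44-fold in wild type cultures. The other Ccna2 probe set differed more, by 0.70 in knockout and 0.85 in wild type cultures (log2), against 0.43 and 0.39 on the brightest. Cdc25c, a phosphatase that activates Cdk1, rose 1.28-fold in wild type cultures, and Cks2, a small Cdk-binding protein, 1.35-fold. In knockout cultures Cdc25c stood at 1.16-fold (adjusted p 0.124) and Cks2 at 1.28-fold (adjusted p 0.0688), short of the threshold. Cdc25b, a related phosphatase, passed in neither genotype. It read 1134 and 1124 with Shh against 1111, 1219 and 1293 untreated in knockout cultures, and 1336 and 1384 with Shh against 1118, 1072 and 1333 untreated in wild type cultures. Its difference in knockout cultures was -0.09 (log2, SE 0.12), the only negative one among the 47 genes, and it was positive when arrays were centred on their medians. With 1 array left out, the call was lost for Ccna2 in knockout (replicate 8, adjusted p up to 0.115), Ccnb2 in knockout (any of 1, 2, 4, 5, 6, 7, 8, 9 and 10, adjusted p up to 0.158), Ccna2 in wild type (any of 3 and 7, adjusted p up to 0.132), Cdc25c in wild type (replicate 9, adjusted p up to 0.139) and Cks2 in wild type (any of 3, 7 and 9, adjusted p up to 0.145). The call was lost under other settings for Ccnb2 in knockout (adjusted p 0.0722 after quantile normalization, 0.0558 with the probe sets of every gene averaged, 0.0751 with only the groups compared in the fit, 0.0923 without replicates 1 and 6 together and 0.0535 with consecutive numbers as a block), Ccna2 in wild type (adjusted p 0.0557 with only the groups compared in the fit and 0.0612 without replicates 1 and 6 together), Cdc25c in wild type (adjusted p 0.0653 with all its probe sets averaged and 0.0606 with only the groups compared in the fit) and Cks2 in wild type (adjusted p 0.0594 with only the groups compared in the fit). Ccnb2 itself has 1 probe set, so averaging left its own values as they were.

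All 4 mitotic kinases outside the chromosomal passenger complex rose in both genotypes. Aurka, which acts at the spindle poles, read 2708 and 2584 with Shh against 1152, 1092 and 1032 untreated in knockout cultures, and 3147 and 3385 with Shh against 1063, 1101 and 1257 untreated in wild type cultures. Every array with Shh was above every untreated array, and the rise was 2.43-fold in knockout (log2 1.28, SE 0.10, adjusted p 5.7e-05) and 2.87-fold in wild type (log2 1.52, SE 0.10, adjusted p 1.61e-05). Plk1, the polo-like kinase required for spindle assembly and mitotic exit, rose 2.01-fold in knockout and 2.65-fold in wild type cultures. Melk, a kinase abundant in dividing progenitors, rose 1.45-fold in knockout and 1.78-fold in wild type cultures. Nek2, which separates the centrosomes, rose 1.31-fold in knockout and 1.55-fold in wild type cultures. Leaving out 1 array ended the call of Nek2 in knockout (any of 2, 6 and 8, adjusted p up to 0.242). Other settings ended the call of Nek2 in knockout (adjusted p 0.9 with all its probe sets averaged, 0.0762 with only the groups compared in the fit and 0.0787 without replicates 1 and 6 together) and Nek2 in wild type (adjusted p 0.424 with all its probe sets averaged).

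In the chromosomal passenger complex, which corrects wrong attachments of chromosomes to the spindle, 3 of 4 genes rose in knockout and all 4 in wild type cultures. Its kinase Aurkb read 2052 and 1609 with Shh against 1008, 1227 and 1119 untreated in knockout cultures, and 2279 and 2365 with Shh against 1008, 1120.4 and 1083 untreated in wild type cultures. The groups did not overlap in either genotype, and replicate 10 was the lower of the knockout arrays with Shh. The rise of Aurkb was 1.63-fold in knockout (log2 0.71, SE 0.13, adjusted p 0.00381) and 2.17-fold in wild type (log2 1.12, SE 0.13, adjusted p 0.000277). The scaffold Incenp rose 1.33-fold in knockout and 1.6-fold in wild type cultures, and survivin (Birc5) 1.36-fold in knockout and 1.56-fold in wild type cultures. Borealin (Cdca8) rose 1.37-fold in wild type cultures and stood at 1.13-fold in knockout cultures (adjusted p 0.325). With 1 array left out, the call was lost for Birc5 in knockout (replicate 8, adjusted p up to 0.144), Incenp in knockout (replicate 8, adjusted p up to 0.152) and Cdca8 in wild type (any of 5, 7 and 9, adjusted p up to 0.123). The call was lost under other settings for Birc5 in knockout (adjusted p 0.0518 with only the groups compared in the fit and 0.0617 without replicates 1 and 6 together), Incenp in knockout (adjusted p 0.129 with all its probe sets averaged, 0.0567 with only the groups compared in the fit and 0.0512 without replicates 1 and 6 together) and Cdca8 in wild type (adjusted p 0.0503 without replicates 1 and 6 together).

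In the spindle assembly checkpoint 2 of 4 genes rose in knockout and all 4 in wild type cultures. Ttk, the kinase that starts the checkpoint signal at unattached kinetochores, read 1382 and 1261 with Shh against 908, 889 and 963 untreated in knockout cultures, and 1436 and 1778 with Shh against 884, 826 and 781 untreated in wild type cultures. Arrays with Shh lay above untreated ones in both genotypes. The rise of Ttk was 1.44-fold in knockout (log2 0.52, SE 0.12, adjusted p 0.00944) and 1.93-fold in wild type (log2 0.95, SE 0.12, adjusted p 0.000361). Bub1, a kinetochore kinase, rose 1.37-fold in knockout and 1.67-fold in wild type cultures. Bub1b, part of the inhibitor of the anaphase-promoting complex, rose 1.48-fold in wild type cultures and stood at 1.13-fold in knockout cultures (adjusted p 0.175). Mad2l1, another part of that inhibitor, rose 1.36-fold in wild type cultures and stood at 1.19-fold in knockout cultures (adjusted p 0.193). Leaving out 1 array ended the call of Bub1 in knockout (any of 2, 6, 8 and 10, adjusted p up to 0.217), Ttk in knockout (replicate 8, adjusted p up to 0.0768) and Mad2l1 in wild type (any of 1, 3, 7 and 9, adjusted p up to 0.159). Other settings ended the call of Bub1 in knockout (adjusted p 0.058 without a filter on dim genes, 0.407 with all its probe sets averaged and 0.0846 without replicates 1 and 6 together), Ttk in knockout (adjusted p 0.248 with all its probe sets averaged), Bub1 in wild type (adjusted p 0.0529 with all its probe sets averaged), Mad2l1 in wild type (adjusted p 0.088 without replicates 1 and 6 together) and Ttk in wild type (adjusted p 0.439 with all its probe sets averaged).

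At kinetochores and centromeres 2 of 5 genes rose in knockout and 3 of 5 in wild type cultures. Ndc80, the microtubule-binding arm of the kinetochore, had the largest difference of the 47 genes in wild type cultures. It read 1037 and 958 with Shh against 459, 481 and 399 untreated in knockout cultures, and 1167 and 1178 with Shh against 408, 368 and 413 untreated in wild type cultures. The groups were clearly apart in both genotypes, and the rise was 2.24-fold in knockout (log2 1.16, SE 0.11, adjusted p 0.000125) and 2.96-fold in wild type (log2 1.57, SE 0.11, adjusted p 1.71e-05). Cenpe, a kinetochore motor, rose 1.61-fold in knockout and 2-fold in wild type cultures. The centromeric histone Cenpa rose 1.32-fold in wild type cultures and stood at 1.15-fold in knockout cultures (adjusted p 0.232). Nuf2, the partner of Ndc80, passed in neither genotype. It read 660.0 and 639 with Shh against 799, 650.2 and 354 untreated in knockout cultures, and 989.8 and 1430.4 with Shh against 555, 776 and 676 untreated in wild type cultures. Its wild type arrays did not overlap while its knockout arrays did, and its replicates spread widely, with an SE of 0.31 against a median of 0.12 over the 47 genes. The difference of Nuf2 was 0.19 in knockout (adjusted p 0.689) and 0.84 in wild type cultures (adjusted p 0.066). Cenpf, a large protein of the outer kinetochore, read 2737 and 2117 with Shh against 2154, 2230.4 and 1962 untreated in knockout cultures, and 2723 and 2468 with Shh against 1972, 2260.4 and 1983 untreated in wild type cultures. Its difference was 0.19 in knockout and 0.33 in wild type cultures (adjusted p 0.323 and 0.0844). With 1 array left out, the call was lost for Cenpe in knockout (any of 4, 8 and 10, adjusted p up to 0.104) and Cenpa in wild type (any of 1, 3, 7 and 9, adjusted p up to 0.135). The call was lost under other settings for Cenpe in knockout (adjusted p 0.0538 without a filter on dim genes) and Cenpa in wild type (adjusted p 0.469 with all its probe sets averaged and 0.0676 without replicates 1 and 6 together).

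Of 6 kinesin motors, the same 5 rose in both genotypes. Kif20a, which acts in the central spindle, read 1251 and 1382 with Shh against 632, 657 and 573 untreated in knockout cultures, and 1466 and 1679 with Shh against 602, 528 and 607 untreated in wild type cultures. The groups were clearly apart, and the rise was 2.12-fold in knockout (log2 1.08, SE 0.11, adjusted p 0.000234) and 2.72-fold in wild type (log2 1.44, SE 0.11, adjusted p 3.3e-05). Kif2c, which takes microtubules apart at centromeres, rose 1.67-fold in knockout and 2.16-fold in wild type cultures. Kif11, which pushes the spindle poles apart, rose 1.56-fold in knockout and 2.06-fold in wild type cultures, the minus-end motor Kifc1 1.5-fold in knockout and 1.93-fold in wild type cultures, and Kif23 of the central spindle 1.6-fold in knockout and 1.71-fold in wild type cultures. Kif4, the chromosome-bound motor, passed in neither genotype. It read 1361 and 1013 with Shh against 876, 1129 and 992 untreated in knockout cultures, and 1300.1 and 900.2 with Shh against 949, 1057 and 935 untreated in wild type cultures. Shh and untreated arrays overlapped in both genotypes, and the difference was 0.24 in knockout and 0.14 in wild type cultures (adjusted p 0.378 and 0.591). Other settings ended the call of Kif23 in knockout (adjusted p 0.124 with all its probe sets averaged).

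All 6 spindle and microtubule-binding proteins rose in both genotypes. Hmmr, which binds spindle microtubules together with Tpx2, read 1951 and 1678 with Shh against 745, 756 and 848 untreated in knockout cultures, and 2034 and 2199 with Shh against 687, 657 and 863 untreated in wild type cultures. The groups did not overlap, and the rise was 2.32-fold in knockout (log2 1.21, SE 0.14, adjusted p 0.000356) and 2.9-fold in wild type (log2 1.53, SE 0.14, adjusted p 6.77e-05). Gtse1, a microtubule-binding protein, rose 2.21-fold in knockout and 2.06-fold in wild type cultures. Nusap1, which bundles microtubules, rose 1.55-fold in knockout and 1.86-fold in wild type cultures, the cytoskeleton protein Ckap2 1.72-fold in knockout and 1.84-fold in wild type cultures, Tpx2, an activator of Aurka, 1.37-fold in knockout and 1.43-fold in wild type cultures, and Psrc1, a spindle protein rich in proline and serine, 1.4-fold in knockout and 1.42-fold in wild type cultures. Leaving out 1 array ended the call of Tpx2 in knockout (replicate 10, adjusted p up to 0.0549), Psrc1 in knockout (any of 2 and 8, adjusted p up to 0.169) and Psrc1 in wild type (replicate 7, adjusted p up to 0.138).

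In cytokinesis 2 of 4 genes rose in knockout and 3 of 4 in wild type cultures. Anln (anillin), the scaffold of the contractile ring, had the largest difference of the 47 genes in knockout cultures. It read 2630.3 and 2224 with Shh against 938, 915 and 913 untreated in knockout cultures, and 2775 and 2726 with Shh against 1017, 1041 and 1036 untreated in wild type cultures. Every array with Shh lay above every untreated array, and the rise was 2.62-fold in knockout (log2 1.39, SE 0.09, adjusted p 2.52e-05) and 2.67-fold in wild type (log2 1.42, SE 0.09, adjusted p 1.35e-05). Prc1, which bundles the midzone microtubules and is unrelated to the Polycomb complex of the same abbreviation, rose 1.52-fold in knockout and 2.06-fold in wild type cultures. Racgap1, its neighbour in the central spindle, rose 1.32-fold in wild type cultures and stood at 1.1-fold in knockout cultures (adjusted p 0.419). Ect2, the activator of RhoA at the cleavage furrow, passed in neither genotype. It read 1962 and 1076 with Shh against 810.1, 1083 and 1151 untreated in knockout cultures, and 2151 and 1354 with Shh against 728, 1022 and 1212 untreated in wild type cultures. Replicates 8 and 7 were far above the other array with Shh of their genotype, its SE was 0.32, and the differences of 0.53 in knockout and 0.82 in wild type cultures had adjusted p values of 0.245 and 0.0741. With 1 array left out, the call was lost for Prc1 in knockout (replicate 8, adjusted p up to 0.0517) and Racgap1 in wild type (any of 3, 5, 7 and 9, adjusted p up to 0.192). The call was lost under other settings for Racgap1 in wild type (adjusted p 0.052 after quantile normalization and 0.126 with all its probe sets averaged).

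Among the genes that control anaphase, 1 of 4 rose in knockout and 3 of 4 in wild type cultures. Ube2c, the ubiquitin-conjugating enzyme of the anaphase-promoting complex, read 10416 and 10392 with Shh against 5996, 6739.8 and 6996 untreated in knockout cultures, and 10809 and 12408 with Shh against 7674, 5813 and 7422 untreated in wild type cultures. Its groups did not overlap, and the rise was 1.59-fold in knockout (log2 0.66, SE 0.14, adjusted p 0.00705) and 1.67-fold in wild type (log2 0.74, SE 0.14, adjusted p 0.00334). Cdc20, the activator of the complex, rose 1.46-fold in wild type cultures and stood at 1.24-fold in knockout cultures (adjusted p 0.0679). Separase (Espl1), which cuts cohesin, rose 1.29-fold in wild type cultures and stood at 1.2-fold in knockout cultures (adjusted p 0.0615). Securin (Pttg1), the inhibitor of separase, passed in neither genotype. It read 5812 and 4416 with Shh against 4314, 5933 and 4115 untreated in knockout cultures, and 5939 and 5252 with Shh against 4707, 5151 and 5125 untreated in wild type cultures. The difference of Pttg1 was 0.10 in knockout and 0.16 in wild type cultures (adjusted p 0.705 and 0.511). Further Pttg1 probe sets differed by 0.15 and 0.15 in knockout and by 0.45 and 0.19 in wild type cultures. Leaving out 1 array ended the call of Cdc20 in wild type (replicate 7, adjusted p up to 0.0537) and Espl1 in wild type (any of 7 and 9, adjusted p up to 0.071). Other settings ended the call of Espl1 in wild type (adjusted p 0.0527 without replicates 1 and 6 together).

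Of the 2 genes of mitotic chromosome structure, Top2a rose in both genotypes and Mki67 passed in neither. Top2a, the enzyme that untangles sister chromatids, read 8028 and 6805 with Shh against 5819.8, 5804 and 5623 untreated in knockout cultures, and 8465 and 8672 with Shh against 6407, 5739.5 and 6013 untreated in wild type cultures. It rose 1.29-fold in knockout (log2 0.36, SE 0.10, adjusted p 0.0252) and 1.42-fold in wild type (log2 0.50, SE 0.10, adjusted p 0.00468). Mki67, the coat protein of mitotic chromosomes behind the Ki-67 stain for dividing cells, read 6651 and 5840.1 with Shh against 5865, 5756 and 5111 untreated in knockout cultures, and 6126 and 6061 with Shh against 6011, 4952 and 5659 untreated in wild type cultures. The arrays of Mki67 overlapped in knockout cultures, and its difference was 0.16 in knockout and 0.14 in wild type cultures (SE 0.12, adjusted p 0.336 and 0.381). The 95% interval of that difference ran from -0.10 to 0.43 in knockout and from -0.12 to 0.40 in wild type cultures. With 1 array left out, the call was lost for Top2a in knockout (any of 4, 6 and 8, adjusted p up to 0.202). The call was lost under other settings for Top2a in knockout (adjusted p 0.802 with all its probe sets averaged, 0.067 with only the groups compared in the fit and 0.0703 without replicates 1 and 6 together) and Top2a in wild type (adjusted p 0.117 with all its probe sets averaged).

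The 2 transcription factors of the G2/M programme lay below the median of the 47 genes in both genotypes on their brightest probe sets, whereas all 3 of their other probe sets bright enough to test lay above it in wild type cultures (0.67). Mybl2, a partner of the MuvB complex, read 508 and 398 with Shh against 346, 395 and 339 untreated in knockout cultures, and 538 and 516 with Shh against 367, 437 and 381 untreated in wild type cultures. It rose 1.34-fold in wild type (log2 0.42, SE 0.13, adjusted p 0.0368) and stood at 1.25-fold in knockout cultures (adjusted p 0.102). Foxm1, a forkhead activator of late cell cycle genes, read 747 and 868 with Shh against 585, 689.9 and 607 untreated in knockout cultures, and 978 and 812 with Shh against 624, 858 and 729 untreated in wild type cultures. Its difference was 0.36 in knockout and 0.29 in wild type cultures (adjusted p 0.112 and 0.188). The other 2 Foxm1 probe sets bright enough to test differed by 0.34 and 0.22 in knockout and by 0.71 and 0.78 in wild type cultures, so the probe sets of this gene disagree in size in wild type. The other Mybl2 probe set differed by 0.31 in knockout and 0.74 in wild type cultures. Leaving out 1 array ended the call of Mybl2 in wild type (any of 1, 5, 7 and 9, adjusted p up to 0.154). Other settings ended the call of Mybl2 in wild type (adjusted p 0.0594 without a filter on dim genes and 0.111 without replicates 1 and 6 together).

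Other probe sets of the same genes gave a check of direction. There were 54 further probe sets, on 29 genes, and 40 of them lay above the filter. Of these 40, 36 had the sign of the brightest one for Shh in knockout and 39 in wild type cultures. Between genotypes 37 did with Shh and 21 untreated, and 31 did for the interaction of genotype and Shh. Several dimmer ones showed larger differences, such as 1.31 in knockout and 1.71 in wild type cultures for Nusap1, against 0.63 and 0.90 on the brightest. A dim probe set of Incenp went the other way, with -0.34 in knockout and -0.49 in wild type cultures, and 1 of Top2a had -0.24 in knockout and 0.15 in wild type cultures.

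The next question was whether the genes differed between genotypes at the same treatment. Among untreated cultures 1 of 47 was higher in knockout and 0 lower, where 0.325% of all genes tested were called higher and 0.0526% lower, or 0.377% in either direction. The median difference, knockout minus wild type, was 0.02, as over all genes (0.02). With Shh 0 of 47 genes passed, where 0.728% of all genes did (0.614% higher and 0.114% lower), while at an unadjusted p under 0.05 there were 12 lower and 3 higher in knockout. The median with Shh was -0.23, against 0.01 over all genes, and 41 of 47 genes had a negative sign. Both knockout arrays with Shh lay below both wild type arrays for 32 genes and above them for 3, an order found for 16.8% and 22.3% of all genes. Without replicate 10 the median was -0.13 and without replicate 8 it was -0.32.

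The gene called was Psrc1. It read 2959 and 2549.7 in knockout against 1813 and 1495 in wild type cultures with Shh, and 1723, 2048 and 2129 in knockout against 1133, 1106 and 1235 in wild type cultures untreated. Knockout arrays were above wild type arrays in both conditions. Untreated, the difference was 0.76 on the log2 scale (SE 0.12, 1.69-fold, adjusted p 0.0359). With Shh it was 0.74 (SE 0.15, adjusted p 0.0702), past the threshold at 0.0131 only with an intensity trend and a robust prior. The second probe set of Psrc1 differed by 0.77 with Shh and by 0.82 untreated. The untreated call did not hold with consecutive replicate numbers as a block (adjusted p 0.0532), without any of replicates 1, 3, 4, 5, 6, 8 and 10 (0.0548 to 0.167), or without replicates 1 and 6 together (0.331). Arrays 6 and 1 had the highest signal of the 18S ribosomal RNA control, 2413 and 654, against 136 to 472 on the others.

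Ckap2 and Gtse1 were the other genes above wild type on every knockout array in both conditions. Of all genes tested, 22.3% had that order with Shh and 7.62% untreated, and the share with both was not counted. Ckap2 read 3122 and 2867 in knockout against 2282 and 2291 in wild type cultures with Shh, and 1858, 1716 and 1651 in knockout against 1359, 1154 and 1233 in wild type cultures untreated. Its difference was 0.39 with Shh (adjusted p 0.224) and 0.48 untreated (adjusted p 0.0914). Gtse1 read 1111 and 908 in knockout against 723 and 812 in wild type cultures with Shh, and 491, 478 and 402 in knockout against 362, 359 and 398 in wild type cultures untreated. Its difference was 0.39 with Shh (adjusted p 0.374) and 0.29 untreated (adjusted p 0.516), and neither gene passed. As background, Psrc1 and Gtse1 are known in mouse as genes induced by p53. Ttk and Espl1 were also above wild type on every untreated knockout array, which made 5 genes, where 7.62% of all genes had that order. Anln was the 1 gene below it, where 5.73% of all genes were. It differed by -0.16 untreated (adjusted p 0.676).

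**Figure D4:**
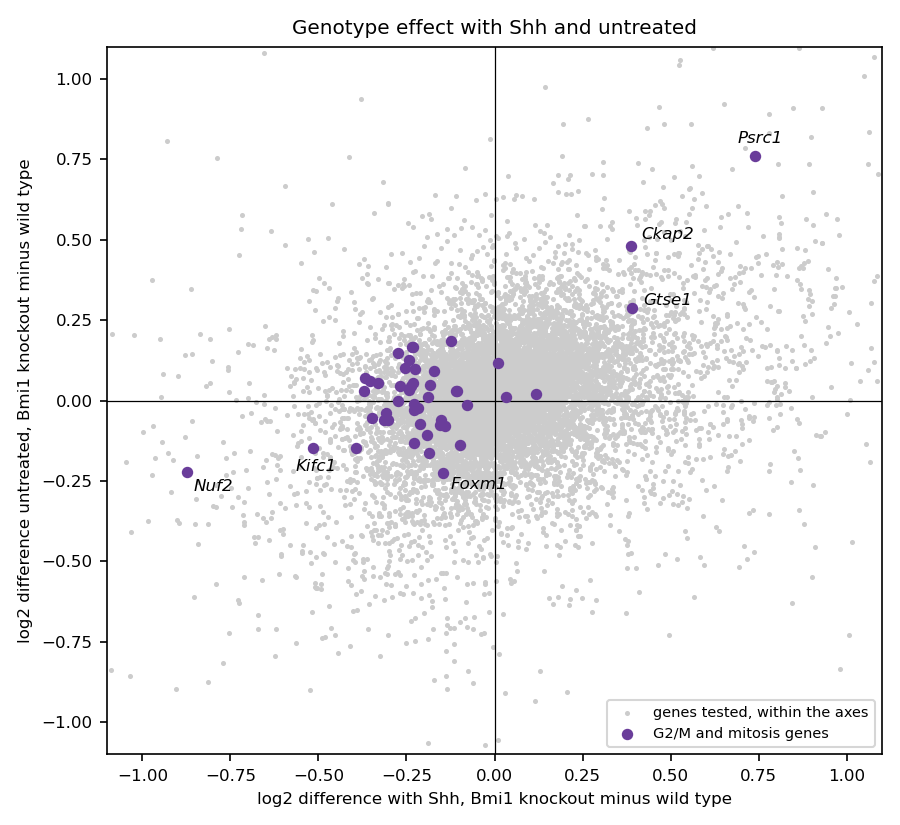
Each purple point is a gene, placed by its difference, knockout minus wild type, with Shh (horizontal) and untreated (vertical), both on the log2 scale, over all genes tested in grey within the axes. Most purple points lie left of 0 and near 0 on the vertical axis, with Psrc1, Ckap2 and Gtse1 at the upper right and Nuf2 at the far left.

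The largest negative differences with Shh were those of Nuf2 and Kifc1. Nuf2 read 660.0 and 639 in knockout against 989.8 and 1430.4 in wild type cultures, a difference of -0.87 (SE 0.34, adjusted p 0.429). Kifc1 read 488 and 496 in knockout against 648 and 762 in wild type cultures, a difference of -0.52 (SE 0.12, adjusted p 0.131). Arrays of the genotypes did not overlap for either gene, and neither passed. Markers of other cells differed between the genotypes with Shh. Oligodendrocyte lineage markers summed to 11470 to 14080 in knockout and 10080 to 10630 in wild type cultures, with 3 of 6 called higher. Microglial markers summed to 2348 to 3336 in knockout and 4054 to 4344 in wild type cultures, with 1 of 8 called lower. Astrocyte and interneuron lists each had 1 gene called higher in knockout. Untreated, none of these lists had a passing gene. All 8 microglial markers were negative in both conditions (median -0.54 untreated and -1.01 with Shh). All 4 interneuron markers were positive in both (0.61 and 0.98). For astrocytes 3 of 9 were positive untreated and 9 of 9 with Shh, and for the oligodendrocyte lineage 3 of 6 and 5 of 6. The part of these cells in the genotype differences was not tested.

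**Figure D5:**
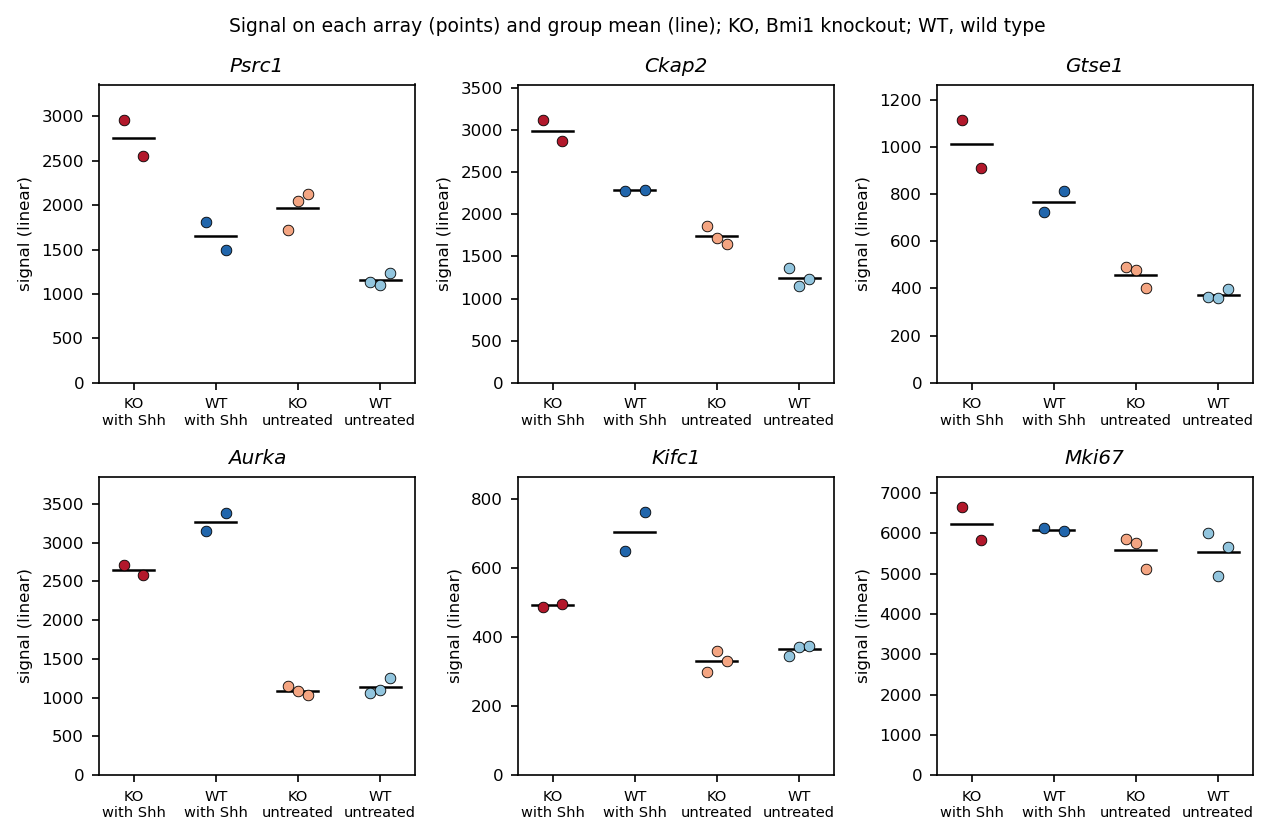
Points are the linear signal on each array and lines the group means, with knockout left of wild type and cultures with Shh left of untreated ones. Psrc1, Ckap2 and Gtse1 lie higher in knockout, Aurka and Kifc1 lower in knockout with Shh, and Mki67 is nearly level.

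Whether the Shh difference itself depended on genotype was tested as an interaction. None of the 47 genes passed, where 0.00877% of all genes did (1 gene), and at an unadjusted p under 0.05 there were 9, all negative, meaning a smaller Shh difference in knockout. The lowest adjusted p was 0.82, for Bub1b. It read 1774 and 1802 with Shh against 1591, 1663 and 1497 untreated in knockout cultures, and 2168 and 2331 with Shh against 1524, 1479 and 1565 untreated in wild type cultures, an interaction of -0.39 (SE 0.13). The sign was negative for 42 of 47 genes (89.4%), with a median of -0.24, against 49.8% and a median of 0.00 over all genes tested. Of the 1592 genes called higher with Shh in wild type cultures 75.9% had a negative sign, with a median of -0.12. That group was picked on the same wild type arrays. The median over the 47 genes was -0.12 without replicate 10 and -0.30 without replicate 8.

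Side by side over the 47 genes, the Shh differences in knockout and in wild type, which share no arrays, had a Pearson correlation of 0.913 and a Spearman correlation of 0.885 (0.914 and 0.863 over all genes tested). The genotype differences with Shh and untreated, which also share none, had 0.729 and 0.172 (0.417 and 0.304 over all genes), and the 3 genes Psrc1, Ckap2 and Gtse1 stand apart from the rest in that pair. Genes within a sample share their cells and are not independent, so these values only describe the 47 genes.

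A wider list of 107 further mitotic genes showed how far the pattern reached. Of all genes tested, 11.1% rose and 17% fell with Shh in knockout cultures, and 14% rose and 19.8% fell in wild type cultures. Of the 103 listed genes tested, 46 rose and 2 fell in knockout cultures, and 67 rose and 1 fell in wild type cultures. The medians of the 103 were 0.35 and 0.56. Ccnf, the F-box cyclin, led with 2.80-fold in knockout and 3.19-fold in wild type cultures. It was followed in wild type by the kinesin Kif18a (2.92-fold), the condensin subunit Ncapg (2.84-fold) and the centromere protein Cenpl (2.69-fold). All 8 condensin genes rose in wild type and 5 of 8 in knockout cultures. Of 11 genes of cohesin and its protectors, 4 rose in each genotype, and of 15 of the anaphase-promoting complex and its inhibitors, 4 rose in knockout and 6 in wild type cultures. Nek6 fell in both genotypes (0.652-fold in knockout and 0.649-fold in wild type), and Anapc7 in knockout (0.833-fold). None of the 103 passed between genotypes in either condition, where 0.728% of all genes did with Shh and 0.377% untreated.

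DNA replication and G1/S genes act earlier in the cell cycle. Of 47 tested, 13 rose with Shh in knockout and 36 in wild type cultures, against 11.1% and 14% of all genes tested. The medians of the 47 were 0.23 and 0.48. Their interaction was negative for 46 of 47 genes with a median of -0.24, and 0 passed (0.00877% of all genes did). A negative sign was found for 49.8% of all genes tested and 75.9% of those called higher with Shh in wild type cultures. For the mitotic genes the counts that rose were 29 and 39, with an interaction median of -0.24.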

How the data were processed

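RNA of 10 cultures was hybridised to 1 Affymetrix mouse whole-genome expression array each. The deposited values are signal intensity on a linear scale, made by the authors with GCOS 1.2 and MAS5, per the submitters' processing notes, and detection calls were not used here. Of 45101 probe sets, 64 controls were left out, 34945 carried 1 gene symbol in the platform annotation, 932 several and 9160 none, and 34741 were matched to RefSeq (GRCm38.p6) by Entrez identifier, with 0 symbols changed. Signals below the 25th percentile (20.9) were set to that value before the log2 transform. The brightest probe set stood for its gene, and a gene was tested where the mean of that probe set reached the median over probe sets (a signal of 76.4). The intensity of an array has no count depth, so the number of arrays limits the precision.

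Tests were made with limma 3.58.1 (R 4.3.3), in a model with 1 mean per group over all 10 arrays (lmFit, eBayes, 6 residual and 3.11 prior degrees of freedom). Tests were two-sided, with Benjamini-Hochberg adjustment over the 11397 genes of each of 5 comparisons and a threshold of 0.05. The scripts were tested on simulated data. The 48 genes and the lists of other mitotic, replication and marker genes were chosen with earlier results of these data known. Values are printed in full for each gene that passed between genotypes, the gene of each role with the largest Shh difference in wild type, the genes that passed for Shh in neither genotype, Foxm1 and Mybl2. Ckap2, Gtse1, Kifc1 and Bub1b were added after their values were seen. Replicate numbers are unique and name no pairs. Untreated arrays with consecutive numbers deviated together from their group means (r 0.120 to 0.278 over genes, against -0.266 to 0.0533 for other pairings), and those with Shh at 0.160, so a fit with consecutive numbers as a block was an alternative, although no label names such pairs. Other alternatives changed the floor, filter, normalization, probe set rule, prior, and arrays in the fit.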

Additional observations from a re-analysis of the deposited data

Results flagged for a closer look

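The arrays of Ttk, the checkpoint kinase, were ordered by genotype in opposite directions in the 2 conditions, although neither genotype difference passed (limma adjusted p 0.537 with Shh and 0.801 untreated). With Shh both knockout arrays (1382 and 1261) lay below both wild type arrays (1436 and 1778). Untreated, all 3 knockout arrays (908, 889 and 963) lay above all 3 wild type arrays (884, 826 and 781). The test of the difference itself, the interaction, was -0.42 on the log2 scale (SE 0.16, unadjusted p 0.0284) and did not pass over all genes (limma adjusted p 0.961). Knockout arrays lay wholly below wild type arrays with Shh for 16.8% of all genes tested, and wholly above them in untreated cultures for 7.62%. The share of genes with both orders was not counted, so whether the order of Ttk is unusual was not tested.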

How the results depend on the processing

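Under 10 other settings and with each of the 10 arrays left out in turn, the 47 genes kept a positive median with Shh in both genotypes and a negative median of the genotype difference with Shh. The interaction, which cannot be fitted with only the groups compared, kept a negative median under the other 9 settings and with each array left out. Centring arrays on their medians moved the Shh median to 0.74 in knockout and 1.02 in wild type cultures, and quantile normalization moved it to 0.60 in wild type. The untreated genotype count of 1 (Psrc1) became 0 without a filter on dim genes, with centred arrays, with the mean of all probe sets, with only the groups compared, without replicates 1 and 6, and with consecutive numbers as a replicate block, and 2 (Psrc1 and Ckap2) with a trend and robust prior, where the count with Shh became 1. The block changed 1 other call, that of Ccnb2 with Shh in knockout (adjusted p 0.0535). Leaving out 1 array gave 18 (without 8) to 30 genes called with Shh in knockout, with medians of 0.35 (without 8) to 0.55 (without 10), and 29 (without 7) to 40 in wild type, with medians of 0.63 to 0.67. It gave 0 to 1 untreated genotype calls, and medians of -0.32 to -0.13 for genotype with Shh and -0.30 to -0.12 for the interaction, where the calls remained 0. Over all genes, 634 were called higher with Shh in knockout without 8, against 1260 with every array. In wild type the same counts were 917 without 7 and 1592. Calls held under all alternatives for 16 of 29 genes in knockout and 24 of 39 in wild type. With the mean of all probe sets 2 values reversed, Nek2 with Shh in knockout (-0.05, adjusted p 0.900) and the interaction of Ttk (0.12, adjusted p 0.999). Each of these means takes in a probe set below the filter, with -0.91 for Nek2 and an interaction of 0.67 for Ttk. Further Nek2 probe sets above the filter had 0.13 and 0.22. Over all genes, genotype calls with Shh numbered 83, against 3 with only the groups compared, 29 without replicate 8, 32 without replicate 9 and 135 with a trend and robust prior. Untreated they numbered 43, against 12 without replicates 1 and 6 and 82 with a trend and robust prior. With 2 arrays in each Shh group, small differences between genotypes could not be resolved.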

Other observations

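Readouts of the hedgehog pathway outside the mitotic genes were at hand on the same arrays. Gli1, a transcription factor induced by hedgehog signalling, read 1987 and 1550 with Shh against 1193, 1156 and 1199 untreated in knockout cultures, and 1665 and 1745 with Shh against 853, 764 and 857 untreated in wild type cultures. It rose by 0.57 on the log2 scale in knockout (limma adjusted p 0.0069) and by 1.05 in wild type cultures (adjusted p 0.000235). With Shh the 2 genotypes overlapped, whereas every untreated knockout array lay above every untreated wild type array (log2 difference 0.52, adjusted p 0.113). Ccnd1, the G1 cyclin that precursors make in response to Shh, rose by 0.51 in knockout (adjusted p 0.0218) and by 0.86 in wild type cultures (adjusted p 0.00142). Mycn, another of the granule cell lineage markers, read 5658 and 5101 with Shh against 3169, 4325 and 3991 untreated in knockout cultures. In wild type cultures it read 5717 and 5290 with Shh against 3564, 3805 and 3918 untreated. Its arrays of the 2 genotypes overlapped with Shh. Gli1, Ccnd1 and Mycn were chosen after their values were seen, and the hedgehog response as a whole was not tested.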
